A study of Homo sapiens with 12 samples.

Results

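The MYB family of human transcription factors has 3 members, MYB, MYBL1 and MYBL2, and their transcripts were followed across an siRNA knockdown of MYB and its rescue in K-562 cells. The members were taken by gene symbol, and all 3 were found among the 60658 rows of the table. MYB and MYBL2 were among the 13393 genes tested, which reached 1 FPKM (fragments counted per kilobase of transcript and scaled to library size) in at least 3 of the 12 libraries. MYBL1 reached 1 FPKM in 2 libraries and was not among them. K-562 is an established human erythroleukemia line. Each of the 4 groups held 3 libraries of poly(A) RNA taken 24 hours after siRNA transfection, and the design text calls the 3 replicates separate experiments. Control libraries (siRNA_Control) came from a stable line carrying the 3xTY1 tag and given a siGENOME non-targeting siRNA. Knockdown libraries (MYB_KnockDown) came from cells labelled with the same 3xTY1 tag and given the MYB siRNA si2992. The rescue groups received si2992 too, in cells stably expressing tagged wild-type MYB (3xTY-hcM, MYB-WT_Rescue) or the tagged D152V form (3xTY-D152V, D152V_Rescue), named for a substitution in the DNA-binding domain. Stable lines were selected with G418 and the labels give neither the promoter of the constructs nor whether a line is 1 clone. A difference between rescue groups therefore cannot be told apart from a difference between stable lines.

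The 3 proteins share a DNA-binding domain of MYB repeats, which reads a short motif with the core AACNG. MYB is a factor of hematopoietic progenitors that activates genes with the acetyltransferases CREBBP (CBP) and EP300 (p300). MYBL2 (B-MYB) is made in dividing cells, where E2F factors switch it on and it joins the MuvB complex to activate mitotic genes, a task later taken by FOXM1. MYBL1 (A-MYB) is best known from male germ cells, where it drives meiotic and piRNA genes, and from germinal-centre B cells.

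In 11 libraries the FPKM total lay between 672616 and 798362, and in MYB_KnockDown replicate 1 it was 1215578. Its log2 values matched those of its 2 sister libraries less closely (r of 0.929 and 0.930 over tested genes) than any other pair within a group matched (at least 0.983). Counts and calls that it moves are therefore also given without that library, a choice made with its values known. The share of summed FPKM on genes for ribosomal proteins was 22.04%, 15.86% and 14.95% in the 3 knockdown libraries, 11.2% to 13.3% in control and 9.56% to 11.6% in the rescue libraries, and the part of this difference in the results below was not tested. Read depth is unknown, since the table holds no counts. All 17 genes of the erythroid K-562 list were tested, and of 11 lymphoid markers 8 stayed under 1 FPKM in every library. In bulk RNA, fewer cells that make a transcript and less of it per cell cannot be told apart.

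Promoter sequences were examined for the MYB and MYBL2 genes, whose E2F motif is shown, and for MYADM, the listed MYB target with the largest drop in the knockdown. Each is the 110 bases upstream of the RefSeq start on GRCh38.p14, plus strand, and capitals mark the motif searched. For MYB (chr6:135181198-135181307) and MYBL2 (chr20:43667004-43667113) the capitals mark the E2F motif GGCGGGA. For MYADM (chr19:53866261-53866370) they mark the MYB motif, CAACNG or TAACNG on either strand.
MYB: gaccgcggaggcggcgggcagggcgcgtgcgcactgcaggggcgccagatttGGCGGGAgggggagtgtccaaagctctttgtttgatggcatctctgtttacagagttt
MYBL2: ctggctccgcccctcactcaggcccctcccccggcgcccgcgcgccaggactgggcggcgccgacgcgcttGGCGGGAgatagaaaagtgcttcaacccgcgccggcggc
MYADM: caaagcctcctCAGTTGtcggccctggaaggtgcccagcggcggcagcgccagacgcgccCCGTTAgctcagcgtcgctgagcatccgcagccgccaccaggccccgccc
The E2F motif began 58 bases before the MYB start and 39 bases before the MYBL2 start. In the 250 bases before the start, neither gene held the MYB motif or the CHR motif of cell cycle genes (TTTGAA or TTCGAA on either strand). The MYADM window held 2 MYB motifs, beginning 99 and 50 bases before its start. Over the 250-base windows of 27305 RefSeq promoters, 13.6% held the E2F motif 39.4% the MYB motif and 14.6% the CHR motif. All 3 were searched separately and on both strands, and a match describes letters only.

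The targeted gene, MYB (ENSG00000118513; GRCh38 chromosome 6, 135181308 to 135219172, protein coding), was read at 124.0, 131.9 and 104.3 FPKM in control replicates 1 to 3. Knockdown libraries held 26.1, 32.9 and 31.5 FPKM. All 3 knockdown values lay below all 3 control values, and the mean of 30.2 ± 3.59 FPKM (SD, n = 3, as below) was 25.1 ± 2.99% of the control mean of 120.1 ± 14.2. On the log2(FPKM + 1) scale, used for every change given here, MYB fell by 1.96 (SE 0.13, limma adjusted p = 3.03e-05). The fall was 1.86 without MYB_KnockDown replicate 1 (limma adjusted p = 2.28e-05). In this comparison 11.3% of tested genes were called at a limma adjusted p under 0.05, 3.94% higher and 7.38% lower.

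Both rescue lines held more MYB than the knockdown. MYB-WT_Rescue libraries held 132.5, 125.0 and 114.8 FPKM, a mean of 124.1 ± 8.87 or 103.4% of control. The rise over the knockdown was 2.01 (SE 0.13, limma adjusted p = 5.61e-06). In that comparison 37.6% of tested genes were called, 20.6% higher and 16.9% lower. D152V_Rescue libraries held 86.6, 86.2 and 100.4 FPKM, a mean of 91.1 ± 8.11 or 75.8 ± 6.76% of control. The rise was 1.56 (SE 0.13, limma adjusted p = 3.22e-05), and 25.1% of tested genes were called, 13% higher and 12% lower. Every rescue library lay above every knockdown library. All 3 of these MYB calls, knockdown included, held in each of 20 alternative settings. The table gives 1 value per gene, so endogenous and introduced MYB transcripts are not separated, and the sources used here do not say where si2992 binds.

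**Figure D1:**
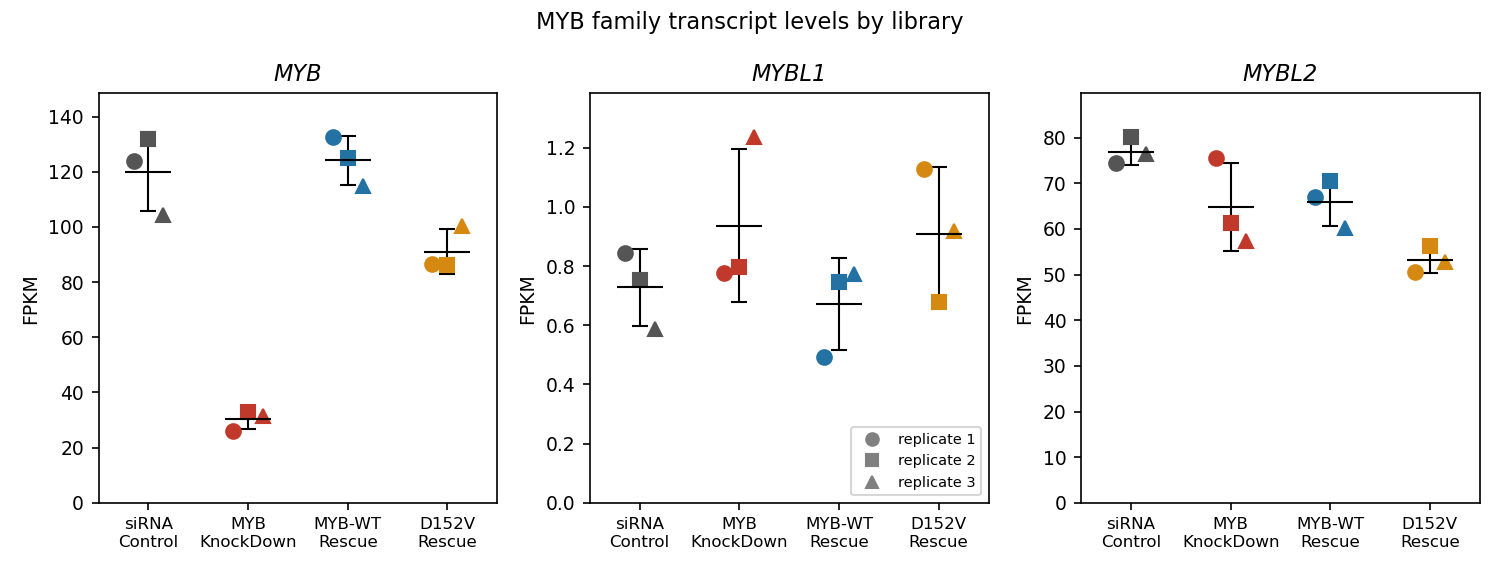
FPKM of MYB, MYBL1 and MYBL2 in each of the 12 libraries, by group, each panel with its own axis from 0; symbols mark replicate numbers, and lines and bars give the mean ± SD (n = 3). MYB is lowest in the 3 knockdown libraries, MYBL2 is lowest in the D152V rescue, and MYBL1 stays near 1 FPKM throughout.

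The wild-type rescue and control libraries overlapped in MYB, and their difference was 0.05 with a 95% interval of -0.24 to 0.34 (limma adjusted p = 0.877). Here 9.62% of tested genes were called, 5.04% higher and 4.58% lower. The 3 D152V libraries all lay below the 3 wild-type rescue libraries, by -0.44 with an interval of -0.73 to -0.16 (limma adjusted p = 0.0494). Of all tested genes 12.1% were called, 5.96% higher and 6.19% lower. The limma adjusted p for MYB was 0.0640 with the replicate number as a block over all 12 libraries. Replicate numbers paired only these 6 rescue libraries, so that fit was not a paired test of them. The p for MYB passed the threshold in 2 of 20 alternative settings, ranging from 0.00529 without MYB_KnockDown replicate 1 to 0.169. Leaving out any of the 6 rescue libraries ended the call, as did leaving out any library other than that one. Against control, D152V libraries were lower in MYB by -0.39 with an interval of -0.68 to -0.10 and no overlap (limma adjusted p = 0.0943). Here 9.55% of tested genes were called, 4.61% higher and 4.94% lower. Without MYB_KnockDown replicate 1 the p for MYB was 0.0118. Rescue libraries of the 2 lines thus did not overlap in MYB, but the call of a difference passed in only 2 of 20 alternative settings. Equal MYB transcript in the 2 lines was not shown either. The part of MYB level in other differences between the lines was not tested.

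MYBL2 (ENSG00000101057; GRCh38 chromosome 20, 43667114 to 43716482, protein coding) was the other abundant member. Control libraries held 74.5, 80.1 and 76.3 FPKM and knockdown libraries 75.7, 61.4 and 57.3. Replicate 1 of the knockdown lay inside the control range and replicates 2 and 3 below it. The means were 77.0 ± 2.85 and 64.8 ± 9.63 FPKM. The difference of -0.25 (95% interval -0.52 to 0.01) did not pass the test (limma adjusted p = 0.171). Without replicate 1 of the knockdown it was -0.37 and passed (limma adjusted p = 0.0108). In those 11 libraries 20.3% of all tested genes passed, 7.26% higher and 13% lower.

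In neither rescue line was a rise of MYBL2 over the knockdown called. MYB-WT_Rescue libraries held 67.0, 70.6 and 60.3 FPKM of MYBL2, a mean of 65.9 ± 5.23, overlapping the knockdown libraries. The difference from the knockdown was 0.03 with an interval of -0.23 to 0.30 (limma adjusted p = 0.849). Without MYB_KnockDown replicate 1 it was 0.15 with an interval of -0.04 to 0.33 (limma adjusted p = 0.172). D152V_Rescue libraries held 50.5, 56.2 and 52.8 FPKM, a mean of 53.2 ± 2.87, which was the lowest of the 4 groups. They lay below every library of the other groups, by -0.27 against the knockdown (limma adjusted p = 0.117) and -0.30 against MYB-WT_Rescue (limma adjusted p = 0.141). The difference from the knockdown was -0.16 without MYB_KnockDown replicate 1 and -0.12 with quantile normalization (limma adjusted p = 0.175 and 0.347).

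The MYBL2 difference that passed the test was that between the D152V rescue and control. MYBL2 fell by 0.53 there (SE 0.12, 95% interval -0.79 to -0.26, limma adjusted p = 0.0182), to 69.1 ± 3.73% of the control mean. The call held in 15 of 20 alternative settings, with the p between 4.43e-04 and 0.0833. It was lost without control replicate 1, 2 or 3 (limma adjusted p = 0.0547, 0.0833 and 0.0619) and without D152V_Rescue replicate 1 or 3 (0.0797 and 0.0709). The wild-type rescue also lay below control without overlap, by -0.22 (limma adjusted p = 0.307). With MYB_KnockDown replicate 1 left out, both rescue lines passed against control (limma adjusted p = 4.43e-04 for D152V and 0.0427 for wild type). Of all tested genes 16.5% and 15.9% were then called lower in those comparisons. The D152V line then passed against the wild-type rescue as well (limma adjusted p = 0.0100), as did 31.7% of all tested genes, 13.7% higher and 18.0% lower. The plot of changes with their intervals shows both fits.

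**Figure D2:**
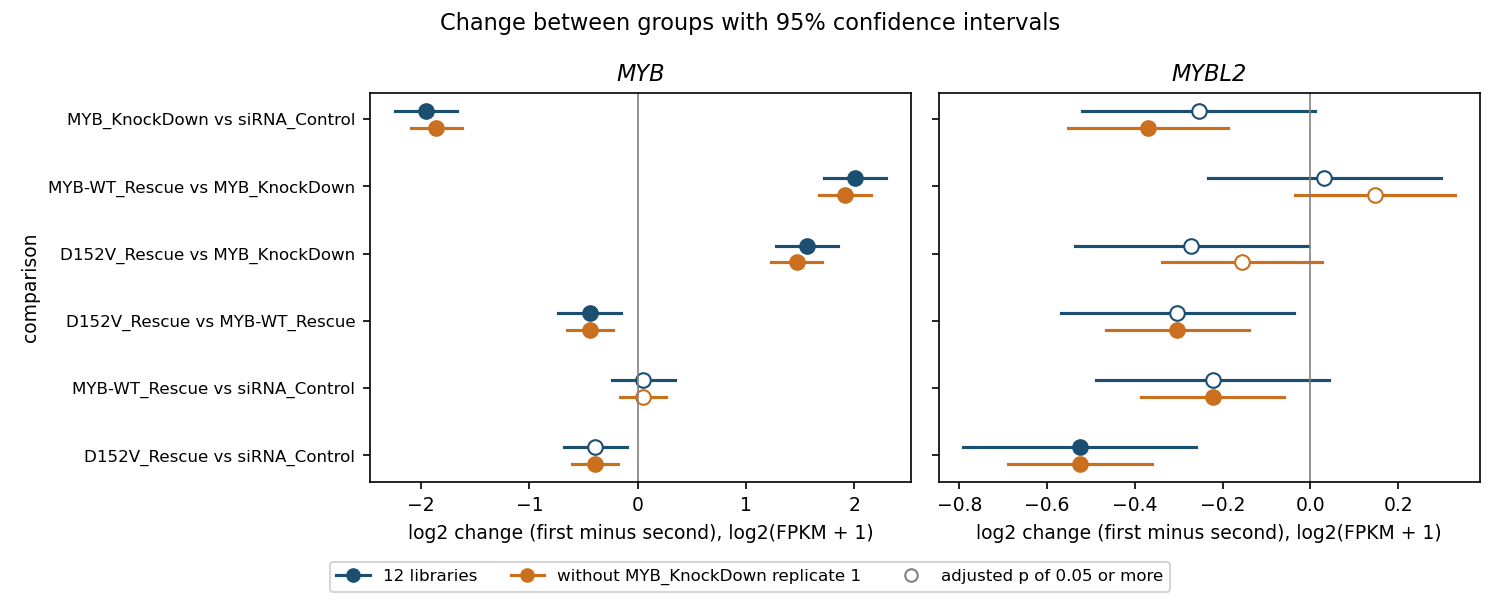
Changes of MYB and MYBL2 in the 6 comparisons as log2(FPKM + 1) differences with 95% intervals from limma, for 12 libraries (blue) and without MYB_KnockDown replicate 1 (orange); filled points have an adjusted p under 0.05. MYB is called in 4 comparisons of the 12-library fit and MYBL2 in 1, D152V_Rescue vs siRNA_Control.

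MYBL1 (ENSG00000185697; GRCh38 chromosome 8, 66562175 to 66613218, protein coding) was present at trace levels. Control libraries held 0.845, 0.754 and 0.587 FPKM and knockdown libraries 0.777, 0.799 and 1.24. Wild-type rescue libraries held 0.494, 0.748 and 0.775 FPKM and D152V rescue libraries 1.13, 0.680 and 0.919. The 2 values above 1 FPKM were in 1 knockdown and 1 D152V library. Group means ran from 0.672 ± 0.155 to 0.937 ± 0.259 FPKM. Groups overlapped in all comparisons except wild-type rescue against knockdown, where the exact two-sided permutation p was 0.1, the smallest that 3 against 3 libraries allow. The 5 other exact permutation p-values ran from 0.3 to 1, and none of the 6 adjusted for the 6 comparisons fell below 0.6. A limma fit with no filter on low values called MYBL1 in none of the 6 either, with adjusted p from 0.370 to 1.

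FPKM is scaled by transcript length, so the members can be set beside each other within a library. In the rescue libraries MYB can include introduced transcripts whose length was not examined. MYB levels, shares and ratios given for those libraries carry that limit. In control libraries MYB made up 60.6 ± 2.64% of the family's summed FPKM, MYBL2 39.0% and MYBL1 0.367%. In knockdown libraries the order of the first 2 was reversed, with MYB at 31.7 ± 5.39% and MYBL2 at 67.3%. MYB returned to 65.1 ± 1.30% in the wild-type rescue and 62.7 ± 2.46% in the D152V rescue. Within a library, MYB exceeded on average 93.2% of tested genes in control and 73.3% in knockdown libraries. The highest and lowest library differed 5.07-fold in MYB, 2.50-fold in MYBL1 and 1.58-fold in MYBL2.

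The ratio of MYBL2 to MYB within a library does not depend on how libraries are scaled to each other. Knockdown libraries held 2.89, 1.86 and 1.82 FPKM of MYBL2 per FPKM of MYB, while the other 9 libraries held between 0.506 and 0.732. On the log2 scale the mean ratio was 1.10 ± 0.38 in knockdown and -0.64 ± 0.16 in control, a difference of 1.73 (exact two-sided permutation p = 0.1). The ratio was -0.91 ± 0.08 in the wild-type rescue and -0.77 ± 0.16 in the D152V rescue, neither overlapping the knockdown (exact permutation p = 0.1 for each). Between the rescue lines it differed by 0.14 and overlapped (exact permutation p = 0.2). Since the knockdown was chosen to lower MYB, the direction of the shift follows from the MYB values above. The MYBL2 mean itself was lower in knockdown than in control libraries, as given above.

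**Figure D3:**
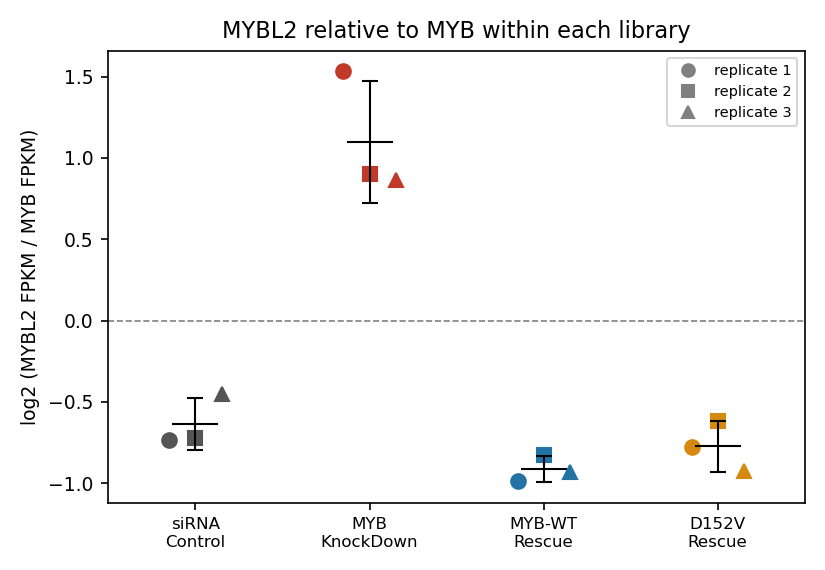
Log2 ratio of MYBL2 to MYB FPKM within each library, by group, with mean ± SD (n = 3); the dashed line marks equal FPKM. The 3 knockdown libraries lie above the line, with replicate 1 highest at 1.53, and the other 9 lie below it.

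Coactivators and other regulators of MYB were examined next, in a list of 26 genes, all tested. The list holds repressive members too, such as SIN3A, and is not limited to genes through which MYB activates. In the knockdown 5 fell and none rose, beside 7.38% and 3.94% of all tested genes. The list's median change was -0.36 against -0.03 over all tested genes. MYBBP1A, a nucleolar MYB-binding protein, fell from 63.3 ± 3.40 to 36.3 ± 1.46 FPKM (limma adjusted p = 0.00373). EP300 fell from 8.84 ± 0.447 to 4.35 ± 1.44 FPKM (limma adjusted p = 0.0155). The ligase PIAS1 and the corepressor SIN3A fell too, by 0.77 and 0.85, and PSIP1, a chromatin reader, completes the 5. CREBBP differed by -0.98 without passing (limma adjusted p = 0.0813), and it was 1.30 FPKM in MYB_KnockDown replicate 1 against at most 6.04 in that group. Without that library the change was -0.45 (limma adjusted p = 0.0239), and 10 of the 26 fell and 1 rose. The count that fell dropped to 1 without control replicate 1 and to 0 in a fit of only the 6 libraries compared. EP300, PIAS1 and SIN3A were each not called without control replicate 1 or 2.

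Against the knockdown, 12 of these 26 genes rose and 2 fell in the wild-type rescue, beside 20.6% and 16.9% of all tested genes. In the D152V rescue 9 rose and 3 fell, beside 13% and 12%, and the share that fell is close to that of all genes. Without MYB_KnockDown replicate 1 the counts were 14 and 3, and 9 and 6. In those 11 libraries 25.5% and 16.8% of all tested genes were called higher in the 2 comparisons and 19.9% and 15.9% lower. The counts that rose dropped to 7 without MYB-WT_Rescue replicate 1 and to 2 without D152V_Rescue replicate 2, and to 4 and 1 in fits of only the 6 libraries compared. EP300 rose by 0.98 and 0.88 in turn, to 9.28 ± 0.701 and 8.59 ± 0.634 FPKM (limma adjusted p = 0.00245 and 0.00761). These comparisons share the knockdown libraries with the one above. Between the rescue lines 1 of the 26 was called, beside 12.1% of all tested genes. Without MYB_KnockDown replicate 1, 4 were higher and 7 lower, beside 13.7% and 18.0%. The 1 called with all 12 libraries was TAF12, a TFIID subunit that MYB binds. It fell from 58.9 ± 2.16 to 29.5 ± 2.92 FPKM (log2 change -0.98, limma adjusted p = 4.77e-04), and this call held in every alternative setting.

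Among 19 tested genes of a 29-gene list of MYB targets from the literature, 6 fell in the knockdown and 1 rose. Over all tested genes 7.38% fell and 3.94% rose. The list's median was -0.39 against -0.03 over all genes. MYADM, a membrane protein of myeloid cells, was at 65.5 ± 9.17 FPKM in control, 13.3 ± 5.69 in the knockdown, 40.3 ± 9.05 in the wild-type rescue and 28.4 ± 7.0 in the D152V rescue. The kinase CDK6 was at 31.0 ± 2.65, 18.2 ± 2.50, 42.6 ± 1.30 and 27.3 ± 1.48 FPKM in the same order. LMO2, a bridging subunit of hematopoietic transcription complexes, STAT5A, a cytokine-activated factor, and MYC, a growth regulator, also fell. KIT, the stem cell factor receptor, fell and TAL1, an erythroid regulator, rose; both were named after their values were seen. The calls of MYADM, CDK6, LMO2, STAT5A and MYC each held in 19 of 20 alternative settings, that of KIT in 9 and that of TAL1 in 6. Without MYB_KnockDown replicate 1, 9 fell and 1 rose. None of the 19 was called in a fit of only the 6 libraries compared, in which 18 genes were called in all.

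In the wild-type rescue 9 of the 19 targets rose against the knockdown and 1 fell, beside 20.6% and 16.9% of all tested genes. In the D152V rescue 3 rose and 2 fell, close to the 13% and 12% of all tested genes. Without MYB_KnockDown replicate 1 these counts were 11 and 2, and 5 and 3. In those 11 libraries 25.5% of all tested genes rose and 19.9% fell in the wild-type rescue. In the D152V rescue 16.8% rose and 15.9% fell, and the share of targets that fell there is close to that of all genes. The 3 that rose in D152V became 1 without D152V_Rescue replicate 1 and 0 in a fit of only the 6 libraries compared. CDK6 and MYADM, with levels given above, were among those that rose in D152V (limma adjusted p = 0.00812 and 0.0219). LMO2 was not among them, at 27.9 ± 4.88 FPKM in control, 12.3 ± 2.27 in the knockdown, 26.9 ± 2.09 in the wild-type rescue and 11.02 ± 1.70 in the D152V rescue. STAT5A was also high in control and wild-type rescue libraries and low in the others, at 141.3 ± 17.4, 67.5 ± 13.7, 130.9 ± 19.2 and 74.7 ± 8.82 FPKM. The D152V and knockdown libraries differed by -0.14 in LMO2 and 0.16 in STAT5A (limma adjusted p = 0.570 and 0.508). A p above the threshold does not show that the levels were alike.

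Between the rescue lines themselves, 7 of the 19 targets were lower in D152V and none higher, beside 6.19% and 5.96% of all tested genes. The list's median was -0.44 against -0.03 over all genes. LMO2 differed by -1.22 (limma adjusted p = 7.36e-04), RUNX1, a factor of blood stem cells, by -0.88 (0.00832), STAT5A by -0.80 (0.0101) and CDK6 by -0.62 (0.00559). The calls of LMO2, RUNX1 and CDK6 held in all 20 alternative settings, and that of STAT5A was lost without MYB-WT_Rescue replicate 2 or D152V_Rescue replicate 3. MYC was lower too, at 117.3 ± 17.5 against 185.1 ± 8.0 FPKM (limma adjusted p = 0.0351), a call that held in 10 of 20. KIT and the receptor ADORA2B complete the 7 and were named after their values were seen. MYADM differed by -0.50 without passing (limma adjusted p = 0.339). The count was 8 without MYB_KnockDown replicate 1, where 18.0% of all tested genes were lower, and 3 without D152V_Rescue replicate 3.

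The knockdown against control and the D152V against the wild-type rescue use different libraries for their differences. Their calls come from 1 fit with a shared estimate of spread, so the overlap of calls is a description and not one of independent contrasts. Of the 6 targets lower in the knockdown, 5 were lower in D152V than in wild type, namely CDK6, KIT, LMO2, MYC and STAT5A, or 83.3% of the first list and 71.4% of the second. Over all tested genes 156 were lower in both, or 15.8% of the 988 and 18.8% of the 829. The behaviour of MYADM, MYC, LMO2, STAT5A, KIT, TAL1 and GATA2 was known when the list was made, so it is not independent evidence. Of the 12 other tested targets, 1 was lower in the knockdown and 3 in D152V against wild type, with medians of -0.21 and -0.24. Over all tested genes 7.38% and 6.19% were lower, so the share in the knockdown is close to that of all genes. Of the 5 targets lower in both comparisons, only CDK6 was not among the 7 genes known beforehand. MYB itself was lower in D152V than in wild-type rescue libraries, as given above. Summed lymphoid markers, of which 3 of 11 were tested, ran from 81.3 to 114.7 FPKM in D152V and from 35.6 to 62.0 in wild-type rescue libraries. Summed erythroid markers ran from 3058 to 4903 and from 1697 to 2723. Summed markers of other cell types, of which 4 of 11 in the table were tested, ran the other way, from 38.0 to 45.0 FPKM in D152V and from 68.6 to 88.1 in wild-type rescue libraries, and the monocyte marker LYZ among them was called lower. In knockdown and control libraries the erythroid sums were 2478 to 8924 and 2069 to 3808. The part of these differences in the target counts was not tested.

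**Figure D4:**
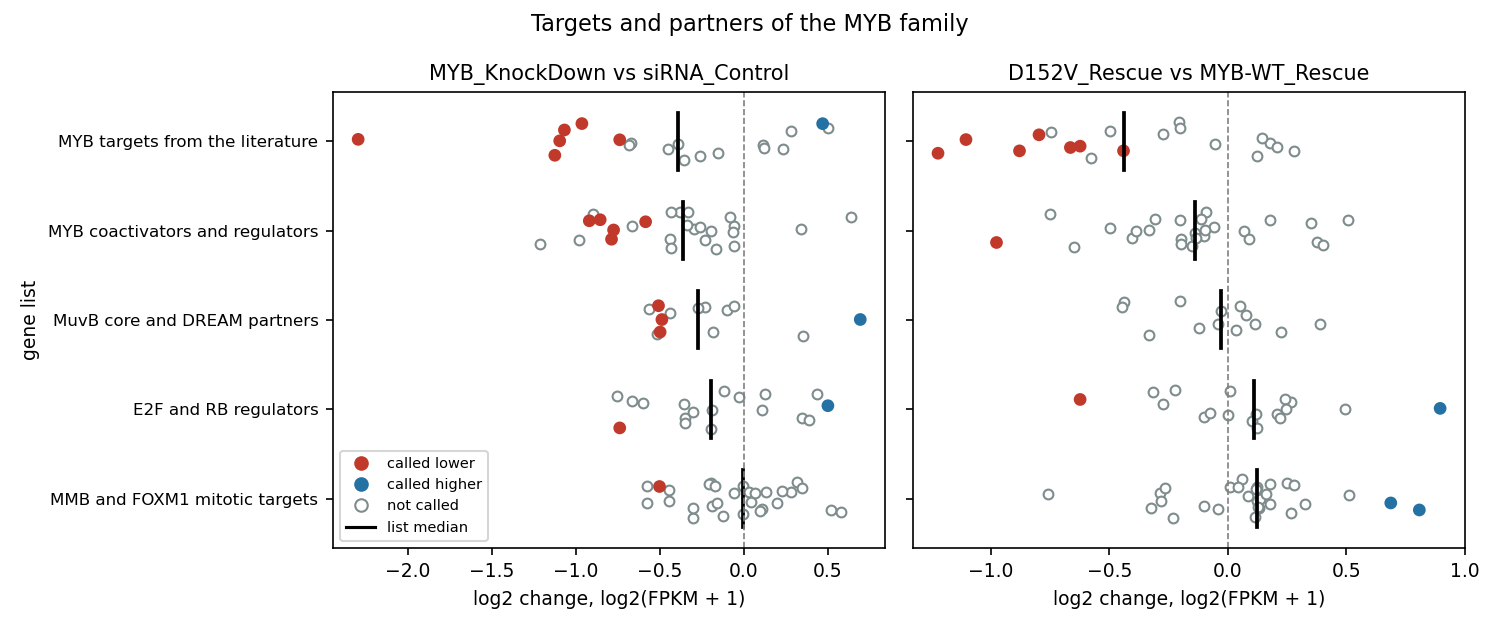
Log2(FPKM + 1) changes of the tested genes of 5 lists in the knockdown against control and in the D152V against the wild-type rescue; red and blue points were called lower and higher by limma, open points were not called, and black bars are list medians. Targets of MYB have medians of -0.39 and -0.44, and the mitotic genes -0.01 and 0.12.

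MYBL2 works with the MuvB core, so its partners and mitotic targets were examined in the same way. Of 13 MuvB and DREAM genes, 3 fell in the knockdown, LIN9, FOXM1 and E2F4, and 1 rose, LIN37. In that comparison 7.38% of all tested genes fell and 3.94% rose. LIN9, a core MuvB subunit, was at 26.2 ± 1.79 FPKM in control, 18.6 ± 3.61 in the knockdown, 37.2 ± 2.68 in the wild-type rescue and 27.2 ± 0.716 in the D152V rescue. E2F4, a repressive E2F of the DREAM complex, fell from 94.5 ± 2.93 to 66.7 ± 4.55 FPKM (limma adjusted p = 0.0124). FOXM1 fell from 34.4 ± 0.360 to 24.1 ± 3.64 FPKM (limma adjusted p = 0.0233). LIN37 rose from 4.99 ± 0.320 to 8.83 ± 2.07 FPKM (limma adjusted p = 0.0310). LIN54, the subunit that binds the CHR motif, differed by -0.52 (limma adjusted p = 0.184). The 3 falls and the rise were all not called without control replicate 1, and the call of LIN9 held in 8 of 20 alternative settings. Between the rescue lines none of the 13 was called by limma, 2 had an unadjusted p under 0.05, and without MYB_KnockDown replicate 1 there were 1 higher and 3 lower, beside 13.7% and 18.0% of all tested genes.

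Few mitotic genes passed the test in the knockdown. Of 29 tested targets of MYBL2 and FOXM1, 1 fell and none rose (7.38% and 3.94% over all tested genes), with a median of -0.01. That gene was CENPF, a kinetochore protein, which went from 22.8 ± 1.93 to 15.8 ± 1.10 FPKM (limma adjusted p = 0.0264). Leaving out MYB_KnockDown replicate 3 raised the count that fell to 5, and leaving out control replicate 1 lowered it to 0. The call of CENPF was also lost without control replicate 2 or 3. CCNB1, the mitotic cyclin B1, was at 144.3 ± 25.2 FPKM in control and 175.3 ± 24.7 in the knockdown (limma adjusted p = 0.293). PLK1, a mitotic kinase, was at 120.3 ± 7.28 and 106.2 ± 19.7 FPKM (limma adjusted p = 0.359). In the wild-type rescue against the knockdown, 6 of the 29 rose and 4 fell, or 6 and 5 without MYB_KnockDown replicate 1. With all 12 libraries these shares are close to the 20.6% and 16.9% of all tested genes. Without MYB_KnockDown replicate 1, 25.5% of all tested genes rose and 19.9% fell. CENPF and NEK2, a centrosomal kinase, rose by 0.89 and 0.78, and CCNB2, cyclin B2, and CDC25B, a CDK phosphatase, fell by 1.08 and 0.51.

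In the D152V rescue, where MYBL2 was lowest, 2 of the 29 mitotic genes were higher than in the wild-type rescue and none lower, where 5.96% of all tested genes were higher and 6.19% lower. The share that was higher is close to that of all genes. CCNB2 was at 78.2 ± 14.2 against 44.0 ± 6.31 FPKM (limma adjusted p = 0.0329), and KIF23, a kinesin of cytokinesis, at 24.4 ± 1.61 against 14.8 ± 1.51 (limma adjusted p = 0.00965). Against control, 1 was higher and none lower, beside 4.61% and 4.94% of all tested genes. Between the rescue lines neither CCNB2 nor KIF23 was called without MYB-WT_Rescue replicate 2 (0 of 29 higher), and the call of CCNB2 held in 13 of 20 alternative settings. Without MYB_KnockDown replicate 1, 4 were higher and 1 lower between the rescue lines, beside 13.7% and 18.0% of all tested genes. The share that was higher is again close to that of all genes. Across the 12 libraries the median Pearson r of the 29 genes with MYBL2 was -0.17, beside 0.06 over all tested genes; libraries of a group share their treatment, so these values are descriptive. In the RefSeq promoters the CHR motif was found in 13 of 25 mitotic genes (52.0%) and the MYB motif in 10 (40.0%). Over all promoters the shares were 14.6% and 39.4%, so that of the MYB motif is close to all promoters. The MYB motif was found in 3 of 23 literature targets (13%), below its share of all promoters.

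E2F and RB regulators, which act upstream of MYBL2, showed 1 rise and 1 fall among 18 in the knockdown, close to the 11.3% of all tested genes called. The counts were 2 and 2 without MYB_KnockDown replicate 1. The rise was CDK4, a G1 kinase, from 88.9 ± 8.96 to 127.3 ± 25.4 FPKM (limma adjusted p = 0.0400), a call that held in 8 of 20 alternative settings. The fall was CDK6, also on the target list. E2F1 was at 11.2 ± 1.10 FPKM in control and 15.7 ± 3.29 in the knockdown without passing (limma adjusted p = 0.0841). E2F2 was at 7.80 ± 1.13 FPKM in control, 8.61 ± 2.36 in the knockdown, 3.71 ± 0.494 in the wild-type rescue and 7.79 ± 1.32 in the D152V rescue. The wild-type rescue was thus the group with low E2F2, and its difference from the D152V rescue was called (log2 change 0.90, D152V minus wild type, limma adjusted p = 0.0100). It was lost without D152V_Rescue replicate 2 (limma adjusted p = 0.0553).

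Genes of male meiosis and the piRNA pathway, processes in which MYBL1 acts in germ cells, were mostly near 0. They were listed by process and are not a list of MYBL1 targets. Of 22 meiotic and piRNA genes, 17 stayed under 1 FPKM in every library, 5 of them at 0, 4 were tested, and the remaining 1 did not reach the filter. TEX15, a nuclear protein of piRNA silencing, fell from 7.07 ± 0.304 FPKM in control to 2.98 ± 1.40 in the knockdown (limma adjusted p = 0.0160). It stood at 8.43 ± 0.356 in the wild-type and 6.89 ± 0.596 in the D152V rescue, and the fall was not called without control replicate 1, 2 or 3. PIWIL4, a nuclear piRNA-binding protein, was at 10.6 ± 0.669, 10.6 ± 1.25 and 11.1 ± 0.438 FPKM in control, knockdown and wild-type rescue libraries and at 26.8 ± 2.12 in the D152V rescue. The D152V libraries lay above the 9 others. Their difference from MYB-WT_Rescue was 1.20 (limma adjusted p = 5.62e-05), and this call held in all 20 alternative settings.

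Other proteins built on MYB-type or related SANT repeats were 20, of which 19 were tested. In the knockdown 3 fell and none rose, beside 7.38% and 3.94% of all tested genes. Those that fell were ZZZ3, a subunit of the ATAC acetyltransferase complex, MYSM1, a histone deubiquitinase, and SNAPC4, the DNA-binding subunit of the snRNA activator. ZZZ3 went from 28.8 ± 3.16 to 12.6 ± 3.46 FPKM (limma adjusted p = 0.00638). SNAPC4 was at 10.2 ± 0.249 FPKM in control, 7.50 ± 0.401 in the knockdown, 11.7 ± 0.975 in the wild-type rescue and 7.80 ± 0.371 in the D152V rescue. Between the rescue lines SNAPC4 was the 1 that was lower and SMARCA1, an ISWI remodelling ATPase, the 1 that was higher, at 5.71 ± 0.402 against 2.16 ± 0.263 FPKM (limma adjusted p = 9.39e-04). Those shares of 1 in 19 are close to the 6.19% lower and 5.96% higher over all tested genes. Without MYB_KnockDown replicate 1 the count that fell in the knockdown was 6, and between the rescue lines 4 were lower and 1 higher.

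No neighbour of MYB on chromosome 6 was called in the fit of all 12 libraries. HBS1L, a ribosome rescue factor on one side (GRCh38, 134960378 to 135054822), was at 86.0 ± 4.14 FPKM in control and 86.7 ± 18.5 in the knockdown. AHI1, a ciliary protein on the other side (135283532 to 135497740), was at 12.7 ± 1.00 and 12.2 ± 0.688 FPKM. By limma neither was called in any of the 6 comparisons, with 0 unadjusted p under 0.05. In a fit of only the 6 libraries compared, HBS1L was called lower in the D152V rescue than in control (log2 change -0.22, limma adjusted p = 0.0442; 0.427 with all 12 libraries). ALDH8A1 and PDE7B stayed under 1 FPKM in every library. MYB-AS1, antisense to MYB, was at 0 in 9 libraries and at 0.731, 0.338 and 0.673 FPKM in 1 library each of the knockdown, wild-type rescue and D152V rescue. The kit keeps strand, but the sources used here do not say whether the counting used it.

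Likeness to each member was measured as Pearson r of log2(FPKM + 1) over the 12 libraries among tested genes with a symbol and a mean of at least 5 FPKM, 8853 besides MYB. The genes most like MYB were ATF6B (r = 0.977), an endoplasmic reticulum stress factor, LTBR (0.972), the lymphotoxin beta receptor, and RHNO1 (0.966), a DNA damage response protein. For MYBL2 they were AATF (0.964), TCOF1 (0.950), a nucleolar protein of ribosome production, and VAMP3 (0.948), a vesicle fusion protein. For MYBL1 they were EFL1 (0.809), LMBR1L (0.798) and KIAA0513 (0.698), lower values at a level near 1 FPKM. Between members r was 0.146 for MYB with MYBL2, -0.419 for MYB with MYBL1 and -0.540 for MYBL1 with MYBL2. The first became 0.427 without MYB_KnockDown replicate 1. These r are descriptions over 4 groups of 3 libraries, which share treatments.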

How the data were processed

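The authors deposited 1 table of FPKM values for 12 K-562 libraries, with 60658 rows. Per the submitters' processing notes the tools were Cufflinks 2.2.1, TopHat2 2.0.13, Trimmomatic 0.33 and bcl2fastq 2.17.1.14, and the build GRCh38. The sources used here do not give the annotation, the use of strand or the program that wrote the values. Whole reads could not be recovered (for a typical pair of libraries 7.38% of low-value ratios fell near their median, at a tolerance of 2%), so depth is unknown and count models were not used. An FPKM value depends on a library's few most abundant transcripts. Groups and replicate numbers came from the titles. Where replicates share a culture, p-values measure only the spread between these samples.

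The 13393 genes that reached 1 FPKM in at least 3 libraries were analysed as log2(FPKM + 1) in 1 limma 3.58.1 fit (R 4.3.3) with 4 group means, 8 residual degrees of freedom and a variance trend. This scale understates the change of low genes. P-values were adjusted by Benjamini-Hochberg over all tested genes and called under 0.05, two-sided. MYBL1 and the MYBL2 to MYB ratio had exact permutation tests. Python 3.11.15, pandas 2.3.3, scipy 1.17.1 and matplotlib 3.10.9 were used, and the fit was tested on simulated data. Symbols came from a table of Ensembl identifiers (56950 rows matched). Coordinates and promoters came from RefSeq on GRCh38.p14, whose promoter table matched MYB and MYBL2 of the 3 members.

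Replicate numbers were taken to pair libraries where every same-number correlation of deviations from group means exceeded 0.1. That held only between the 2 rescue lines (r of 0.153 to 0.233, other pairs -0.220 to 0.062). The members, gene lists and tests were chosen with earlier results of these data known. Named genes were the members, up to 4 called genes per list and comparison with the smallest adjusted p, the neighbours of MYB, 10 genes named in advance and the 3 genes most like each member. Alternatives were median-ratio scaling, quantile normalization, a pseudocount of 0.1, robust moderation, no filter or a mean FPKM of at least 5, a fit of only the 6 libraries compared, the replicate block, and leaving out each library.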

Additional observations from a re-analysis of the deposited data

Results flagged for a closer look

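MYB differed between the rescue lines by -0.44 on the log2(FPKM + 1) scale (D152V minus wild type, limma adjusted p = 0.0494). This is flagged because both lines were set against the same knockdown and their difference was called with all 12 libraries. The D152V libraries held 86.6, 86.2 and 100.4 FPKM and the wild-type rescue libraries 132.5, 125.0 and 114.8, lower in 3 of 3 libraries. The call was lost in 18 of 20 alternative settings.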

How the results depend on the processing

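The MYB falls and rises against the knockdown kept direction and side of the threshold in all 20 alternatives. Between the rescue lines, the MYB difference missed the threshold with median-ratio scaling (-0.41, limma adjusted p = 0.0644), quantile normalization (-0.38, 0.10), a pseudocount of 0.1 (-0.45, 0.0524), robust moderation (-0.44, 0.0527), a mean FPKM of at least 5 (-0.44, 0.0612), no filter (-0.44, 0.0584) and the replicate block (-0.44, 0.0640). Leaving out 1 library gave -0.52 to -0.40. The block changed no other call of a member.

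For MYB in D152V against control, leaving out 1 library gave -0.49 to -0.32, and the call was gained with only the 6 libraries compared (-0.39, 0.0214). In wild-type rescue against control it gave -0.046 to 0.12, reversed without siRNA_Control replicate 3. For MYBL2, leaving out 1 library gave -0.37 to -0.17 in knockdown against control, -0.050 to 0.15 in wild-type rescue against knockdown, -0.37 to -0.25 between the rescue lines, -0.35 to -0.16 in D152V against knockdown, -0.27 to -0.16 in wild-type rescue against control and -0.57 to -0.49 in D152V against control. Calls were gained in the first with quantile normalization (-0.33, 0.0375) and in the third with only the 6 libraries compared (-0.30, 0.0336). The second reversed to -0.0082 with median-ratio scaling. For MYBL1 the difference of D152V from knockdown ran from -0.10 to 0.088 and that of wild-type rescue from control from -0.11 to 0.030. Quantile normalization, a mean of at least 5 FPKM, robust moderation and only the 6 libraries compared were not run for MYBL1.

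Over all tested genes 1516 were called in knockdown against control, 5031 and 3355 in wild-type and D152V rescue against knockdown, 1627 between the rescue lines, and 1289 and 1279 in wild-type and D152V rescue against control. Leaving out 1 library gave 174 to 2691, 3100 to 6028, 1529 to 4369, 921 to 4207, 620 to 3966 and 702 to 3701 in that order. The lowest came without siRNA_Control replicate 1, MYB-WT_Rescue replicate 2, D152V_Rescue replicate 2, MYB-WT_Rescue replicate 2 for the next pair and D152V_Rescue replicate 3. The highest came without MYB_KnockDown replicate 1, except the third, without MYB_KnockDown replicate 3. Other settings gave 18 to 1952, 1740 to 5340, 554 to 3837, 869 to 3318, 710 to 3524 and 699 to 3610. The fit of only 6 libraries gave the lowest of the first 3. Depth is unknown, which limits what can be said of MYBL1.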
